A study of Mus musculus with 21 samples.

Results

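The hepatocyte nuclear receptor Hnf4a was mapped by chromatin immunoprecipitation and sequencing (ChIP-seq) in 3 lines of mouse hepatocyte-like (iHep) cells, and the regions described here held a peak of the Foxa1 line without one of the Foxa2 or Foxa3 line. The 3 Hnf4a peak lists were pooled, peaks sharing at least 1 bp were merged, and 510 of the 4813 merged regions held a peak of the Foxa1 line alone. Each of the 510 regions consisted of exactly 1 peak, so a region and its peak are the same interval. They were thus chosen by measured values, namely the presence and absence of Hnf4a peaks in the 3 iHep lists.

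The iHep cells of the Foxa1 line started as C57BL/6 embryonic fibroblasts, taken at 13.5 days post coitum, that were infected with retroviruses for Foxa1 and Hnf4a and grown on as iHep cells. The iHep cells of the Foxa2 line and of the Foxa3 line had received Foxa2 or Foxa3 in place of Foxa1, so Hnf4a was introduced into every line. Fibroblasts infected with the same pairs of factors were also examined 48 hours after the virus, with a Foxa library and an Hnf4a library for each line at both stages, and 1 further library at 48 hours came from fibroblasts infected with Hnf4a and a Ty1-tagged del2 mutant of Foxa3. Peak lists of 13 of the 21 samples were used and the 8 inputs were not analysed here.

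Foxa1, Foxa2 and Foxa3 are forkhead transcription factors that can bind their sites in closed chromatin and open it for other factors. Hnf4a binds DNA as a homodimer at direct repeats and is needed for the expression of many hepatocyte genes, often from elements that Foxa proteins also occupy. Supplying a Foxa protein together with Hnf4a converts fibroblasts into cells with hepatocyte features. A region bound by Hnf4a in a line that received Foxa1, and not called in lines that received its relatives, can therefore be examined for Foxa1 itself, for the other Foxa proteins and for Hnf4a in the first 2 days.

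Every group held 1 library, so no replicate spread and no p-value is given, and the number of reads behind each list is unknown. Shares of regions carry 95% Wilson intervals and differences between shares 95% Newcombe intervals, in percentage points. Such intervals reflect counting error alone and treat adjacent peaks as independent, which they are not. The 3 iHep Hnf4a lists differed in length, at 1580 peaks for the Foxa1 line, 2485 for Foxa2 and 2506 for Foxa3, and a peak missing from a list may also have failed to reach that list's threshold. The titles carry codes of unstated meaning, R225 for both iHep libraries of the Foxa1 line, R242 and R215 for Hnf4a and Foxa2 of the iHep Foxa2 line and R170 for both of the iHep Foxa3 line, so line and code cannot be told apart. At 48 hours the codes are R222 for the Foxa1 line and R209 for the others, and the iHep Foxa3 titles carry replicate number 3 where the others carry 1, so stage also differs in code and the labels do not tie the stages to the same infection. The files hold no expression values, so the hepatocyte-like identity of the cells was not checked against marker genes.

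The 510 regions were mostly the weaker and narrower peaks of their own list. The deposited score, for which no formula is stated in the labels, had a median of 9.68 in them and ranged from 5.47 to 30.7, while the 1070 peaks of the Foxa1 line that overlapped a peak of another line had a median of 12.3 and reached 79.1. Their median width was 255 bp against 335 bp in the shared peaks, and 63 regions were exactly 200 bp wide, the narrowest width in that list, against 32 of the shared peaks. These values come from a list that the choice of regions used, and they are given as a description.

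The share of peaks found in the Foxa1 line alone fell across the list as the score rose. With the list split by score into 4 classes of about 25% each, it was 48.5% (191 of 394 peaks) in the lowest class, 43.0% (169 of 393) in the next, 27.9% (110 of 394) in the one above and 10.03% (40 of 399) in the highest, which began at a score of 14.7. Only 40 of the 510 regions thus stood in the highest class of their list. The highest-scoring one ranked 24 in the list of 1580.

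**Figure D1:**
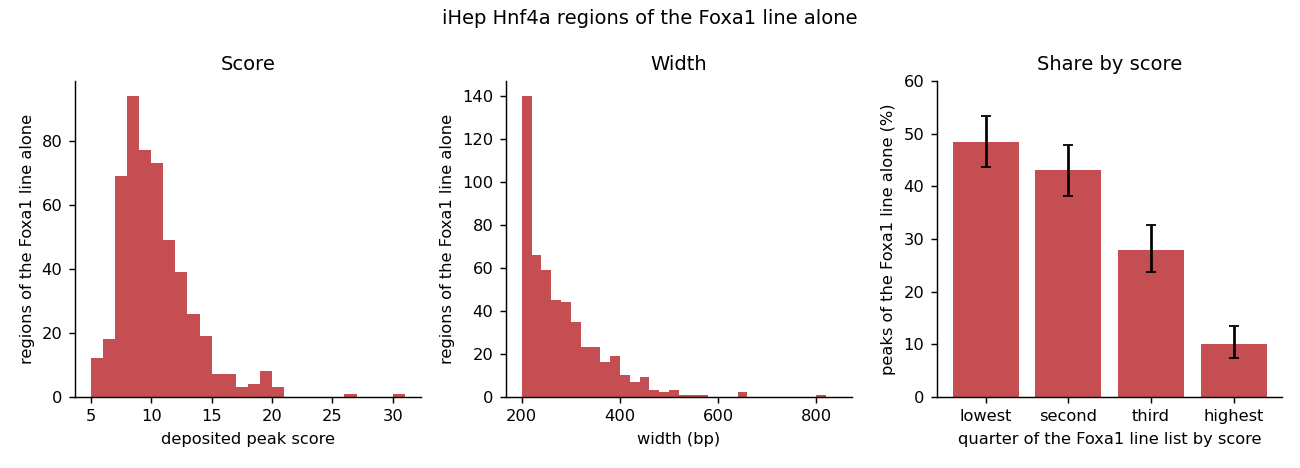
Deposited score (left, 1 unit per bar) and width in bp (middle, 20 bp per bar) of the 510 iHep Hnf4a regions of the Foxa1 line alone, as numbers of regions, and the percentage of Foxa1 line peaks that belong to them in each of the 4 score classes (right, bars with 95% Wilson intervals). Scores crowd near the median of 9.68, widths near the 200 bp minimum, and the percentage is 48.5% in the lowest class and 10.03% in the highest.

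Few of the regions were near misses of a peak in another line. The nearest iHep Hnf4a peak of another line lay a median of 100494.5 bp away, and 40 regions (7.84%, interval 5.81% to 10.5%) had one within 1 kb, beside 12.5% of the 3568 merged regions that belong to any 1 line alone. The regions of the Foxa2 line alone gave 6.84% (5.61% to 8.33%) and those of the Foxa3 line alone 18.2% (16.4% to 20.1%). A peak of the Foxa3 line lay within 1 kb of 32 regions and one of the Foxa2 line within 1 kb of 12. Within 100 kb these counts were 177 and 183, and a region near both lines is counted for each. The nearest peak at any distance belonged to the Foxa2 line for 273 regions and to the Foxa3 line for 237. The share within 1 kb depended on what counts as shared, and was 16.8% when peaks were called shared by centres within 200 bp, a rule under which close non-overlapping or slightly overlapping peaks are sorted differently.

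At the edge of the rule, the closest region just inside it lay at chr6:134517011-134517237 (positions in mm9), 4 bp from a peak of the Foxa3 line. The next ones, at chr7:29710433-29710787 and at chr1:148936060-148936259, lay 6 bp and 13 bp from peaks of the same line. Just outside it, a peak of the Foxa1 line at chr5:96413138-96413362 shared 2 bp with a peak of the Foxa2 line, and peaks at chr15:36880206-36880436 and chr16:22109372-22109575 shared 5 bp and 15 bp with peaks of the Foxa3 line. Such borderline cases were few, with 11 of 510 regions at a gap of at most 50 bp and 19 of 1070 shared peaks with an overlap under 50 bp.

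**Figure D2:**
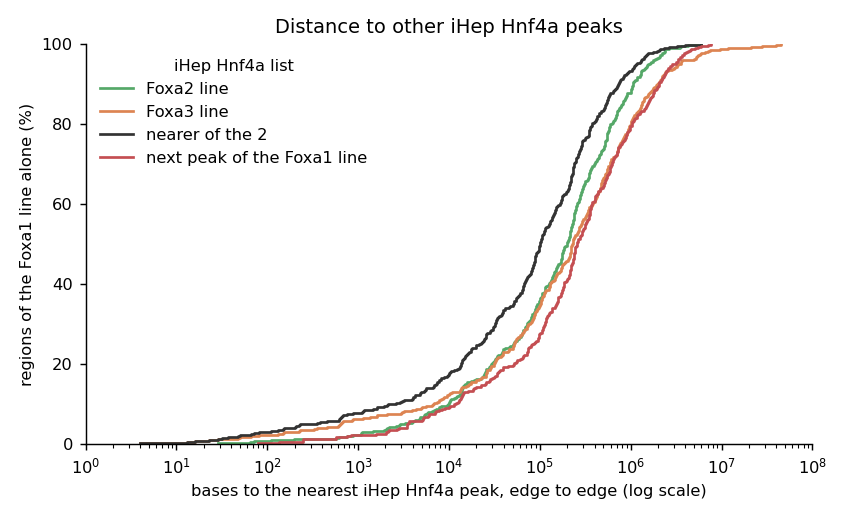
Percentage of the 510 regions of the Foxa1 line alone (vertical axis) whose nearest iHep Hnf4a peak lies within a given number of bases, edge to edge on a log scale (horizontal axis), for the Foxa2 line list, the Foxa3 line list, the nearer of those, and the next peak of the Foxa1 line itself. At 1000 bp the curve for the nearer list stands at 7.84%, and its median is 100494.5 bp.

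Each Foxa protein was mapped in the cells that had received it, so a Foxa2 or Foxa3 peak at a region records binding at that position in the Foxa2 or Foxa3 line, where no Hnf4a peak was called there. Foxa1, the protein introduced into the Foxa1 line, had a peak at a minority of the regions. An iHep Foxa1 peak overlapped 74 of the 510 (14.5%, 11.7% to 17.8%), against 8.25% of all 4813 merged Hnf4a regions. The peaks that the Foxa1 line shared with another line gave 16.2% (173 of 1070), a difference of -1.66 points (-5.29 to 2.26), so the share at Foxa1 was not distinguishable from that of shared peaks within counting error. In the upper 50% of lists by score this difference was 1.945 points (-2.69 to 7.17). Peaks of the Foxa2 line alone gave 8.27% (110 of 1330), and here the regions stood 6.24 points higher (3.02 to 9.83). This interval excluded 0 under each of the 8 alternative settings tried. Of these, leaving out regions under 150 bp could not change it, as the narrowest was 200 bp wide. Leaving out dense blocks of early Hnf4a peaks removed none of the regions. The median width was 255 bp in the regions and 326 bp in the Foxa2 line alone. The Foxa1 and Hnf4a libraries of the iHep Foxa1 line share a title code, and the part of this in the result was not tested.

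The iHep Foxa2 peaks, mapped in the Foxa2 line, overlapped more of the regions than those of Foxa1, from a list of 10330 peaks against 3435. They lay at 95 of the 510 (18.6%, 15.5% to 22.2%), beside 14.8% of all merged regions. Shared peaks of the Foxa1 line lay at Foxa2 in 25.3% of cases (271 of 1070), a difference of -6.70 points (-10.8 to -2.30). Shared peaks were also wider, and the part of width in this was not tested. The regions were lower than shared peaks in each of the 4 score classes, with 30% against 32.9% in the highest and 14.7% against 19.2% in the lowest, and the intervals overlapped in every class. In the upper 50% of every list by score the difference was -3.86 points and its interval included 0. Against the Foxa2 line alone, which gave 16.3% (217 of 1330), the difference was 2.31 points (-1.46 to 6.39), and it turned to -3.15 points (-7.52 to 1.24) with Hnf4a lists of equal length.

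Positions with Foxa1 in the Foxa1 line mostly had Foxa2 in the Foxa2 line as well. Of the 74 with an iHep Foxa1 peak, 60 (81.1%, 70.7% to 88.4%) also had an iHep Foxa2 peak, beside 85.3% of all iHep Foxa1 peaks. Shared peaks of the Foxa1 line gave 89.0% (154 of 173, 83.5% to 92.9%), an interval that overlaps that of the regions. The Foxa2 line alone gave 96.4% (106 of 110, 91.0% to 98.6%), an interval that lies above that of the regions. Read the other way, 60 of the 95 with an iHep Foxa2 peak (63.2%, 53.1% to 72.2%) also had Foxa1. Shared peaks of the Foxa1 line gave 56.8% (154 of 271, 50.9% to 62.6%), an interval that overlaps that of the regions, the Foxa2 line alone gave 48.8% (106 of 217, 42.3% to 55.5%) and the whole iHep Foxa2 list 28.3%. That leaves 14 regions with Foxa1 and no Foxa2 and 35 with Foxa2 and no Foxa1.

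Foxa3 peaks of the iHep Foxa3 line overlapped 41 regions (8.04%, 5.98% to 10.7%), far below the 22.4% of all merged regions, a pool in which 1728 regions belong to the Foxa3 line alone. From all shared peaks of the Foxa1 line, with 9.63% (103 of 1070), the difference was -1.59 points (-4.40 to 1.55), and its interval excluded 0 with peaks up to 500 bp apart merged (-3.22 points). The share was 4.28 points higher (1.499 to 7.25) than in the 585 peaks shared with the Foxa2 line only, of which 3.76% lay at Foxa3. In the 92 peaks shared with the Foxa3 line only 21.7% lay at Foxa3, a difference of -13.7 points (-23.4 to -6.01), and in the 393 shared with both lines 15.5%, a difference of -7.48 points (-11.9 to -3.27). Against the Foxa2 line alone, with 5.26% (70 of 1330), the difference was 2.78 points (0.323 to 5.67), and its interval included 0 with peaks up to 500 bp apart merged (1.95 points) and in the upper 50% of lists by score (2.04 points). Of the 41 regions, 36 had neither an iHep Foxa1 nor an iHep Foxa2 peak, while 109 of all 510 had Foxa1 or Foxa2. Foxa1 lay at 2.44% of the 41 (0.43% to 12.6%), beside 14.5% of all 510. Foxa2 lay at 12.2% of the 41 (5.32% to 25.5%), an interval that includes the 18.6% of all 510. Low shares were also seen in the other classes. Of the 103 shared peaks at iHep Foxa3, 4.85% (5) had iHep Foxa1 and 10.7% (11) iHep Foxa2. Of the 70 peaks of the Foxa2 line alone at iHep Foxa3, these were 2.86% (2) and 5.71% (4). The share of regions at Foxa3 dropped to 4.62% in the upper 50% of every list by score and to 5.66% with peak centres within 200 bp.

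**Figure D3:**
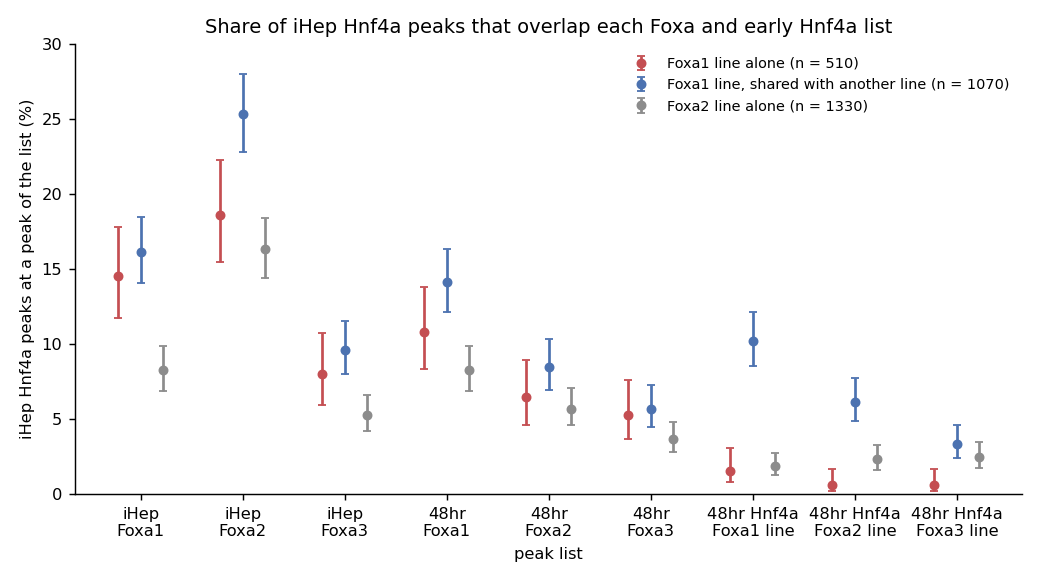
Percentage of iHep Hnf4a peaks (vertical axis) that overlap a peak of each Foxa list and each 48-hour Hnf4a list (horizontal axis), for the Foxa1 line alone, for Foxa1 line peaks shared with another line and for the Foxa2 line alone, with 95% Wilson intervals. The regions of the Foxa1 line alone stand at 14.5% for iHep Foxa1, against 16.2% in shared peaks and 8.27% in the Foxa2 line alone, and at 1.57% for 48-hour Hnf4a of their own line, against 10.2% in shared peaks.

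At 48 hours after infection, Foxa peaks lay at some of the regions, again each in its own line. A 48-hour Foxa1 peak overlapped 55 regions (10.8%, 8.38% to 13.8%), beside 7.52% of all merged regions. Foxa2 at 48 hours overlapped 33 (6.47%, 4.64% to 8.95%) and Foxa3 27 (5.29%, 3.66% to 7.59%), beside 5.15% and 11.6% of all merged regions. None of these 3 shares differed from that of the shared peaks, or from that of the Foxa2 line alone, by more than its interval. For Foxa1 the difference from shared peaks was -3.33 points (-6.60 to 0.25) and from the Foxa2 line alone 2.51 points (-0.38 to 5.80). The Foxa3 share was 2.83% and the Foxa2 share 4.60% with peak centres within 200 bp, and 3.46% and 4.23% in the upper 50% of lists by score.

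Across the stages, Foxa1 was more often found at both than at either one alone. Foxa1 peaks of both stages lay at 44 regions, of iHep cells only at 30 and of 48 hours only at 11. Thus 44 of the 55 regions with early Foxa1 (80%, 67.6% to 88.4%) had Foxa1 in iHep cells too. Shared peaks of the Foxa1 line gave 70.2% (106 of 151, 62.5% to 76.9%) and the Foxa2 line alone 65.5% (72 of 110, 56.2% to 73.7%), both with intervals that overlap that of the regions, and all 48-hour Foxa1 peaks gave 30.8%. Foxa2 was present at both stages at 19 regions, in iHep cells only at 76 and at 48 hours only at 14. In that order the 1070 shared peaks gave 67, 204 and 24, and the 1330 of the Foxa2 line alone 55, 162 and 21. Foxa3 was present at both stages at 21, in iHep cells only at 20 and at 48 hours only at 6. Shared peaks gave 51, 52 and 10, and the Foxa2 line alone 36, 34 and 13. For Foxa1 the same counts were 106, 67 and 45 in shared peaks and 72, 38 and 38 in the Foxa2 line alone.

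Taking the 6 Foxa lists as one, 169 regions (33.1%, 29.2% to 37.3%) overlapped at least 1 of them and 341 overlapped none, beside 39.9% of all merged regions with at least 1. Shared peaks of the Foxa1 line gave 38.9% (416 of 1070), a difference of -5.74 points (-10.7 to -0.653), and the Foxa2 line alone gave 24.1% (320 of 1330), a difference of 9.08 points (4.47 to 13.8), so the regions stood between these classes. Among shared peaks, the 585 shared with the Foxa2 line only gave 33.85%, a difference of -0.71 points (-6.28 to 4.90). The 92 shared with the Foxa3 line only gave 40.2% (-7.08 points, -18.0 to 3.24). The 393 shared with both lines gave 46.1% (-12.9 points, -19.2 to -6.49). The commonest combination was iHep Foxa1, iHep Foxa2 and 48-hour Foxa1, at 27 regions. It was followed by iHep Foxa2 alone at 26, Foxa3 at both stages at 20, iHep Foxa1 with iHep Foxa2 at 19, iHep Foxa3 alone at 16, and Foxa1 and Foxa2 at both stages at 13. A Foxa peak at 48 hours with none in iHep cells was seen at 24 regions, as 169 had any Foxa peak and 145 had one in iHep cells. Of the 1070 shared peaks, 416 had any Foxa peak and 382 had one in iHep cells. The combinations were counted in the regions of the Foxa1 line alone, and whether any is particular to them was not tested. The median Hnf4a score was 9.90 in regions with any Foxa peak and 9.68 in those without. It was 11.75 in the 27 regions of the commonest combination and 9.15 in the 20 with Foxa3 at both stages.

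**Figure D4:**
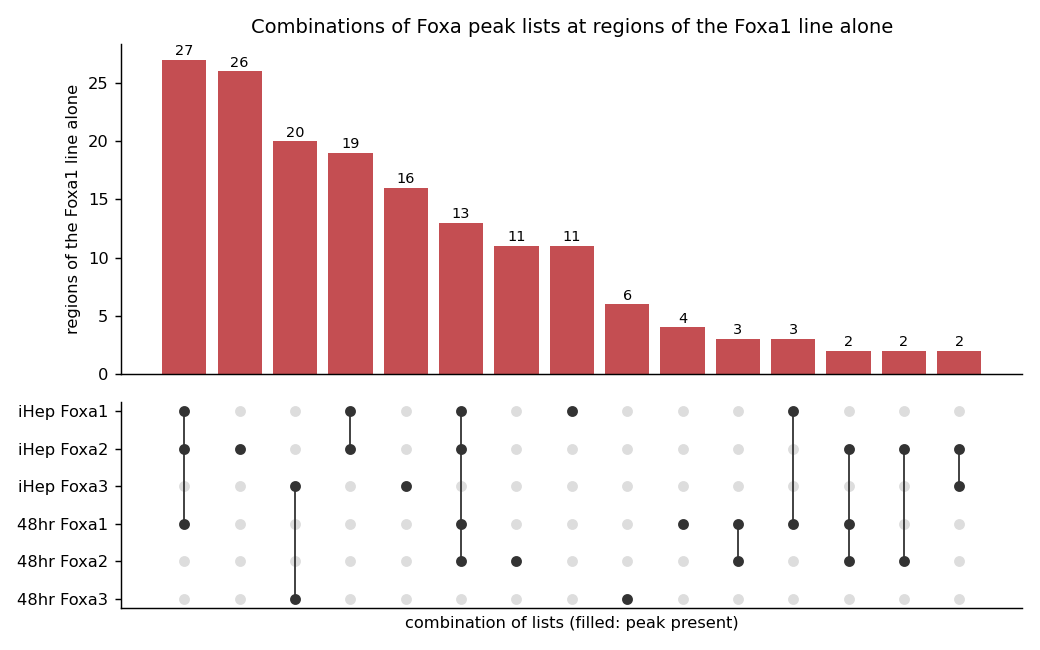
Number of regions of the Foxa1 line alone (bars, numbers above) for each combination of the 6 Foxa peak lists (filled dots below), for combinations found at 2 or more regions. The 341 regions with no Foxa peak are not drawn, and Foxa3 lists join Foxa1 or Foxa2 lists in a single drawn combination, with 2 regions.

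Between 24.2% and 43.2% of the Foxa peaks at these regions belonged to the upper 25% of their list by score, with intervals that overlapped between lists. The 74 iHep Foxa1 peaks had a median score of 22.0, beside 21.5 for the whole iHep Foxa1 list, and 22 of them (29.7%, 20.5% to 40.9%) belonged to its upper 25% by score. The 110 iHep Foxa1 peaks at the Foxa2 line alone had a median of 30.25, with 40.9% (32.2% to 50.3%) in the upper 25%. Of the 95 iHep Foxa2 peaks at the regions, 27.4% (19.4% to 37.1%) belonged to the upper 25% of their list, against 39.3% (33.6% to 45.2%) of those at shared peaks of the Foxa1 line and 40.6% (34.2% to 47.2%) of those at the Foxa2 line alone. The iHep Foxa3 peaks at the regions belonged to the upper 25% in 43.2% of cases (19 of 44, 29.7% to 57.8%), and the 48-hour Foxa1 peaks in 38.2% (21 of 55, 26.5% to 51.4%). For the 48-hour lists of Foxa2 and Foxa3 the shares were 24.2% (8 of 33) and 33.3% (9 of 27), with intervals of 12.8% to 41.0% and 18.6% to 52.2%. Centres of the Hnf4a and the iHep Foxa1 peaks were a median of 72.8 bp apart, and for iHep Foxa3 110.5 bp.

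Hnf4a itself was seldom found at these regions in the first 2 days. A 48-hour Hnf4a peak of the Foxa1 line overlapped 8 of the 510 (1.57%, 0.80% to 3.06%), beside 3.41% of all merged regions, while the Foxa2 and Foxa3 lines gave 3 each (0.588%), beside 2.74% and 1.87%. The shared peaks of the Foxa1 line held a 48-hour Hnf4a peak of that line in 10.2% of cases (109 of 1070), a difference of -8.62 points (-10.7 to -6.38), and here too the part of peak width was not tested. The share was lower than in shared peaks in each of the 4 score classes, with 5% (2 of 40) against 17.3% (62 of 359) in the highest and 0.524% (1 of 191) against 4.93% (10 of 203) in the lowest. In the class just below the highest the intervals did not overlap, at 0.16% to 4.97% (1 of 110) against 5.46% to 11.9% (23 of 284). In every other class they overlapped. Peaks of the Foxa2 line alone overlapped the same early list in 1.88% of cases (25 of 1330), a difference of -0.31 points (-1.48 to 1.30). For the early lists of the Foxa2 and Foxa3 lines that difference was -1.74 points (-2.78 to -0.425) and -1.89 points (-2.95 to -0.562). The 48-hour Hnf4a lists are short, with 418, 453 and 370 peaks in the Foxa1, Foxa2 and Foxa3 lines, and their median widths were 87 to 93.5 bp.

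Together the 3 early lists touched 12 regions (2.35%, 1.35% to 4.07%), beside 5.15% of all merged regions. Of the 8 with early Hnf4a in their own line, the highest score in iHep cells was 18.4, at chr9:30693902-30694555, a region 654 bp wide that also held Foxa1 at both stages and iHep Foxa2. Its early Hnf4a peak was 53 bp wide with a score of 6.64, rank 300 of 418. A region at chr3:145573519-145573718 likewise had Foxa1 at both stages beside early Hnf4a, without Foxa2, and scored 8.14.

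The other 6 of the 8 overlapped no Foxa list. Of all regions of the Foxa1 line alone, 66.9% (341 regions) overlapped none, and a difference from this share was not tested. The 6 lay at chr2:35198110-35198526, chr8:70576282-70576613, chr19:3325520-3325762, chr19:4557644-4557855, chr6:99569046-99569467 and chr14:26046196-26046587. The second of the chromosome 19 regions held the early peak of best rank, 39 of 418 with a score of 12.1, and both it and the chromosome 14 region had an early Hnf4a peak of the Foxa2 line as well. In 4 further regions the early peak belonged to the Foxa2 or Foxa3 line and not to the Foxa1 line. The one of highest rank among these, at chr8:93393024-93393673, had an iHep score of 19.4 and an early Hnf4a peak of the Foxa2 line with a score of 6.25, rank 391 of 453.

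Within the regions, the shares at iHep Foxa1 and iHep Foxa2 both rose with the Hnf4a score, though the intervals of the lowest and highest classes overlapped. From the lowest to the highest score class iHep Foxa1 stood at 11.0%, 14.2%, 16.4% and 27.5% (11 of 40, 16.1% to 42.8%, in the highest). In that order iHep Foxa2 stood at 14.7%, 19.5%, 20% and 30%, and iHep Foxa3 at 9.42%, 7.69%, 7.27% and 5% (2 of 40, 1.38% to 16.5%, in the highest). The interval of the lowest class was 7.3% to 16.2% for iHep Foxa1. For iHep Foxa2 the lowest class gave 10.3% to 20.4% and the highest 18.1% to 45.4%. The median width of the regions was 255 bp, and 318 bp in the upper 50% of lists by score. The part of width was not tested. Shared peaks of the Foxa1 line gave 14.3%, 9.38%, 16.9% and 20.9% for iHep Foxa1. For iHep Foxa2 they gave 19.2%, 22.3%, 22.5% and 32.9%. Over all 510 regions 33.1% overlapped any Foxa list and 14.5% an iHep Foxa1 peak. Among the 100 highest-scoring regions 38 overlapped a Foxa list and 22 an iHep Foxa1 peak, among the first 50 the counts were 21 and 14, and among the first 10 they were 1 and 1. The highest, at chr5:115420958-115421445, scored 30.7, was 488 bp wide and lay 5416 bp from a peak of the Foxa2 line. Next came chr14:70573283-70573665 with a score of 26.5, and chr10:59091716-59092090 with 20.5, both without a peak in any Foxa or early Hnf4a list. Below them stood chr3:27925751-27926120 (20.4), chr17:43379511-43379840 (20.2) and chr1:155884043-155884348 (19.4), also without Foxa. The one with Foxa was chr16:23029143-23029482, with a score of 19.2 and peaks of iHep Foxa1 and iHep Foxa2 that ranked 2402 of 3435 and 6836 of 10330.

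The region richest in Foxa lay at chr12:55798023-55798275 and was the sole one to overlap all 6 lists. Its Hnf4a score was 9.90 and an Hnf4a peak of the Foxa3 line lay 384 bp away. Foxa3 at 48 hours had the best rank in its list there, 13 of 5690 with a score of 389, while iHep Foxa1 ranked 1797 of 3435. Another 13 regions carried Foxa1 and Foxa2 at both stages without Foxa3. Of these the highest Hnf4a scores were 16.7 at chr4:59674942-59675204, 14.7 at chr1:138561689-138562116, 11.4 at chr13:109610099-109610460 and 11.2 at chr1:17584559-17584867. At chr1:138561689-138562116 all 4 Foxa peaks stood in the upper 25% of their lists, ranking 455 of 3435 for iHep Foxa1, 458 of 10330 for iHep Foxa2, 283 of 6781 for 48-hour Foxa1 and 301 of 6827 for 48-hour Foxa2.

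The widest region, at chr11:61191662-61192476, measured 815 bp, scored 10.1 and overlapped no Foxa list. The Ty1-tagged del2 list holds 1 peak, which overlapped 0 of the 510 regions and 0% of all merged regions. A list of 1 peak says nothing about the share of regions that the mutant binds.

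Foxa3 at the regions varied with the distance to Hnf4a peaks of the other lines, and Foxa1 and Foxa2 did not vary in the same way. An iHep Foxa3 peak overlapped 11 of the 40 regions within 1 kb of such a peak (27.5%, 16.1% to 42.8%), 7 of 49 at 1 to 10 kb (14.3%), 16 of 165 at 10 to 100 kb (9.70%) and 7 of 256 beyond 100 kb (2.73%, 1.33% to 5.54%). In the same order of distance, iHep Foxa1 lay at 5%, 16.3%, 16.4% and 14.5% and iHep Foxa2 at 17.5%, 22.4%, 17.6% and 18.8%. Of the 32 regions with an Hnf4a peak of the Foxa3 line within 1 kb, 10 (31.2%, 17.9% to 48.6%) had an iHep Foxa3 peak, against 6.49% (31 of 478, 4.61% to 9.06%) of the rest. The Foxa3 and Hnf4a libraries of the iHep Foxa3 line share a title code, and the part of this in the pattern was not tested.

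**Figure D5:**
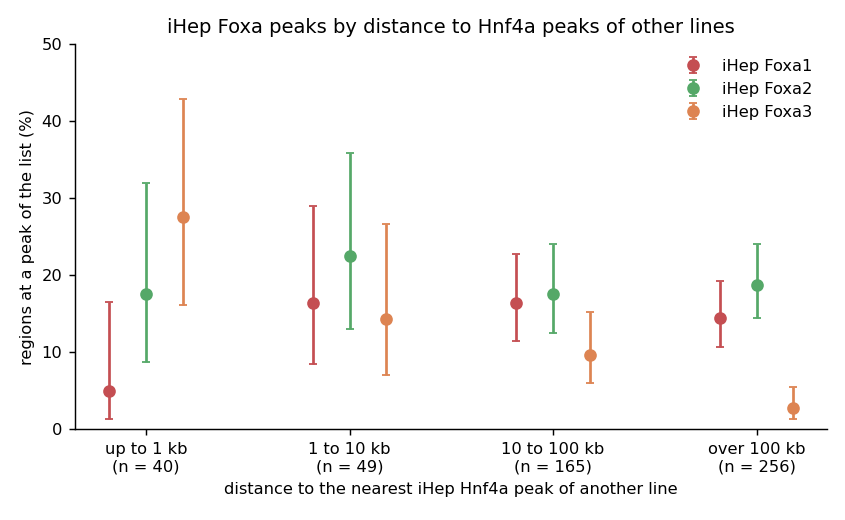
Percentage of the regions of the Foxa1 line alone that overlap an iHep Foxa1, Foxa2 or Foxa3 peak (vertical axis, 95% Wilson intervals), by distance to the nearest iHep Hnf4a peak of another line (horizontal axis, numbers of regions below). Foxa3 stands at 27.5% up to 1 kb and 2.73% beyond 100 kb, while Foxa2 stays between 17.5% and 22.4%.

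The regions were spread over 20 chromosomes and seldom adjoined. Chromosome 4 held the most, with 41 regions, followed by chromosome 2 with 40 and chromosome 1 with 36, and chromosome X held 8. Overall they made up 32.3% of the Foxa1 line peaks (30.02% to 34.6%), and by chromosome from 20% on chromosome 14 (14 of 70, 12.3% to 30.8%) to 40% on chromosome X (8 of 20, 21.9% to 61.3%). The interval of chromosome 14 excluded the overall share, and among 20 intervals at 95% about 1 such exclusion comes from counting error. With gaps of up to 10 kb there were 9 groups, each of 2 regions, among them chr13:100671700-100672705 and chr6:128174937-128176050. None of the 510 regions fell within 10 kb of the 3 dense blocks, chains of at least 5 peaks of a 48-hour Hnf4a list with gaps of up to 2 kb, where 8 of the 1070 shared peaks of the Foxa1 line lay. A count of 0 in 510 has an interval that reaches 0.748%, and the difference was not tested.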

How the data were processed

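The deposited files list 1 sample's peaks each, with a score per peak. Per the submitters' processing notes, BWA 0.6.2, MACS2 2.1.0 and bedtools 2.16.2 were used with genome build mm9. The role of each, the use of an input and the formula of the deposited score are not given in the sources used here, and the score was used only within a list. Samples were grouped by title, and the del2 sample, whose stage label says iHep, was placed at 48 hours by its title. Overlaps of at least 1 bp were counted with Python 3.11.15, NumPy 2.4.6, SciPy 1.17.1 and matplotlib 3.10.9. Comparisons between peaks used each peak's own width. Backgrounds used all merged regions at their merged width. Overlap counting and intervals were tested on simulated data. Regions were named by fixed rules: the 10 highest scores, early Hnf4a of the line, the most Foxa lists, the greatest width and the edge of the rule. The members, lists and rules were chosen with earlier results of these data known. The gene and sequence tables at hand are on GRCm38, so genes and sequences were not analysed here.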

Additional observations from a re-analysis of the deposited data

How the results depend on the processing

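The 510 regions and 17 shares or differences were recomputed under 8 alternatives, and 128 of 144 values changed little, meaning that the interval of a difference included or excluded 0 as before, a share stayed within its original interval and the number of regions stayed within 1.5 times, with no called difference reversed. The number of regions was 479 to 565 with other definitions of sharing and 651 with the 3 Hnf4a lists at equal length, but 260 in the upper 50% of every list by score. In that upper 50% the shares fell to 15.4% at iHep Foxa2, 4.62% at iHep Foxa3, 4.23% at 48-hour Foxa2, 3.46% at 48-hour Foxa3 and 3.85% within 1 kb of another line. There the differences from shared peaks at iHep Foxa2 (-3.86 points) and from the Foxa2 line alone at iHep Foxa3 (2.04 points) had intervals that included 0. Calling peaks shared by centres within 200 bp gave shares of 5.66% at iHep Foxa3, 4.60% at 48-hour Foxa2, 2.83% at 48-hour Foxa3 and 16.8% within 1 kb. With an overlap of 50% of the shorter peak the share within 1 kb was 16.5%, and with peaks up to 500 bp apart merged it was 2.09%, since merging joins close peaks. Merging also made the difference from shared peaks at iHep Foxa3 exclude 0 (-3.22 points) and that from the Foxa2 line alone include it (1.95 points). Otherwise the cause of these changes was not tested. Removing members under 150 bp changed nothing, as the narrowest was 200 bp, so its values among the 128 could not have changed. Leaving out the dense blocks removed none of the regions. The alternatives for the differences from the Foxa2 line alone, and those by score and list length for the differences from shared peaks, were added after the data were seen. No paired analysis was possible because each group has 1 library and no result comes from a test across samples. Depth is unknown, so an absent peak cannot be told apart from one below the threshold of its list.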
